A study of Mus musculus with 2 samples.

Results

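The C/EBP family (CCAAT/enhancer-binding proteins) was examined in G1E-ER4, a mouse erythroid cell line. The members were the 6 genes whose symbols carry the family name, Cebpa, Cebpb, Cebpd, Cebpe, Cebpg and Cebpz. They were taken by name, with earlier results of these data known. They are 6 of the 43346 gene rows in the tables and of the 21474 protein-coding rows. G1E-ER4 lacks a functional Gata1 gene of its own and carries a fusion of Gata1 with the hormone-binding part of the estrogen receptor, which makes Gata1 activity depend on added estradiol. PolyA RNA was sequenced from 1 group, cells labelled male and postnatal and given 10 nM 17beta-estradiol for 7 h. The group had 2 libraries. Their labels call them biological replicates but point to a single biosample, so the spread between them, and SDs here, may be technical. The main p-values below take counting noise as the only error and do not measure that spread. The files held no untreated cells, so every value below is a level in treated cells and none is a response to estradiol.

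C/EBP proteins have a basic region that binds DNA and a leucine zipper through which they pair with one another and with other zipper proteins. C/EBPα directs blood progenitors towards granulocytes and monocytes, and C/EBPε acts late in granulocyte formation. C/EBPβ and C/EBPδ act in inflammation, macrophages and fat cell formation, and C/EBPβ also drives the granulocyte output of infection. C/EBPγ lacks an activation domain and works mainly as a dimer partner, among others of ATF4 in the response to amino acid shortage. Cebpz stands apart, since its product has no leucine zipper and is related to the yeast ribosome assembly factor Noc1. The name C/EBPζ has also been given to the product of Ddit3, which is another gene.

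The promoter sequences are shown because the family takes its name from the CCAAT box, and because the members differed so widely in level. RefSeq promoter windows on GRCm38.p6 were matched for 3 of the 6 members. Each holds 300 bases in the direction of the gene, 250 before the annotated start and 50 after it, and capitals mark the TATAAA or CCAAT matches.
Cebpa, chr7:35119043-35119342, plus strand: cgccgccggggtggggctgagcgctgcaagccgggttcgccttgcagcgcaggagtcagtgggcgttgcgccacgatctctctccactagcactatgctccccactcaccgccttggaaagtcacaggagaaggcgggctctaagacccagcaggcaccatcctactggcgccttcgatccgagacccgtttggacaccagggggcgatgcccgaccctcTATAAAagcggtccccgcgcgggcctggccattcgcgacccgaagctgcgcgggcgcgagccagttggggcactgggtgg
Cebpb, chr2:167688665-167688964, plus strand: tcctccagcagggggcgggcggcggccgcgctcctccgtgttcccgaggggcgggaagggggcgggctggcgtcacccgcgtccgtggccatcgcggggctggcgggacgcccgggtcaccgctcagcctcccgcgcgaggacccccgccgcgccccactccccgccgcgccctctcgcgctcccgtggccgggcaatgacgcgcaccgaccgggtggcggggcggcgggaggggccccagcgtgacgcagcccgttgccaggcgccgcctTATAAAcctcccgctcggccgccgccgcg
Cebpg, chr7:35056517-35056816, minus strand: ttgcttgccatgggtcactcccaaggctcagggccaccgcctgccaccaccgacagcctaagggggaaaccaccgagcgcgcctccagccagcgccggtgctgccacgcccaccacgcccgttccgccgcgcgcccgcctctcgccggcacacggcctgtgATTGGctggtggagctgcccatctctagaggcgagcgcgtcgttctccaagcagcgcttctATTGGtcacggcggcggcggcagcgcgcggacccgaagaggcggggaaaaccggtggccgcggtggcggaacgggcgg

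The CCAAT letters occurred in Cebpg alone of these 3 windows, at 2 places, −89 and −28 from the start. Both lie on the strand opposite to the one printed, so they read ATTGG above. Of all 32851 RefSeq promoter windows of this length, 37.4% held CCAAT on either strand. TATAAA was found at −30 in Cebpa and at 22 in Cebpb, which lies after the annotated start, and 13.6% of all windows held it. None of the 3 windows held TTGCNNAA, a loose C/EBP pattern in which N is any base, found in 10.8% of all windows. Also absent were the C/EBP-ATF element TGATGCAA (in 0.895% of all windows), the GATA site AGATAA (11.2%) and the E-box CACGTG (7.15%). Both strands were read for each motif, and none of the motifs searched overlapped another match. A match is a run of letters and not a bound site.

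All 3 windows were rich in G and C. GC content was 67.3% in Cebpa, 80.7% in Cebpb and 71.7% in Cebpg, against a median of 52.7% over all windows. The Cebpb window had a higher GC content than 99.2% of all windows. The ratio of observed to expected CpG was 0.853, 1.03 and 0.988 for Cebpa, Cebpb and Cebpg, against a median of 0.384. High GC and CpG content were thus shared by Cebpa, which had no counts, and by Cebpb and Cebpg, the most abundant members.

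Each library was deep, with 59610967 expected counts over gene rows in replicate 1 and 44689405 in replicate 2. All 8 erythroid genes checked were detected. They were led by the GATA1 cofactor gene Zfpm1 at a TPM of 2463 ± 686, Klf1 at 1189 ± 290 and Gata1 at 1061 ± 268 (SD, n = 2). TPM is a transcript level scaled for length and depth, and a gene is called detected where both libraries reach a TPM of 1. The Gata1 value includes any fusion transcript that matches the gene. None of 9 lymphoid markers, 8 endothelial and stromal markers or 12 fat and liver genes was detected. Megakaryocyte markers gave 3 of 8, with Gp1ba at a TPM of 52.6 ± 0.0778, Gp5 at 36.1 ± 4.96 and Itga2b at 4.67 ± 0.643. Over all protein-coding genes 38.3% were detected.

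The treated cells expressed C/EBPβ and C/EBPγ transcripts at appreciable levels, Cebpz at a low level, and the 3 other members at or near 0. Thus 3 of 6 members were detected, or 50%, where the share over all protein-coding genes was 38.3%. In falling order of mean TPM the members were Cebpb, Cebpg, Cebpz, Cebpe, Cebpd and Cebpa. The library values of Cebpb, Cebpg, Cebpz and Cebpe did not overlap between neighbours in this order. Those of Cebpe and Cebpd overlapped, at 0.04 to 0.39 and 0.04 to 0.05, so these neighbours were not ordered beyond their spread.

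**Figure D1:**
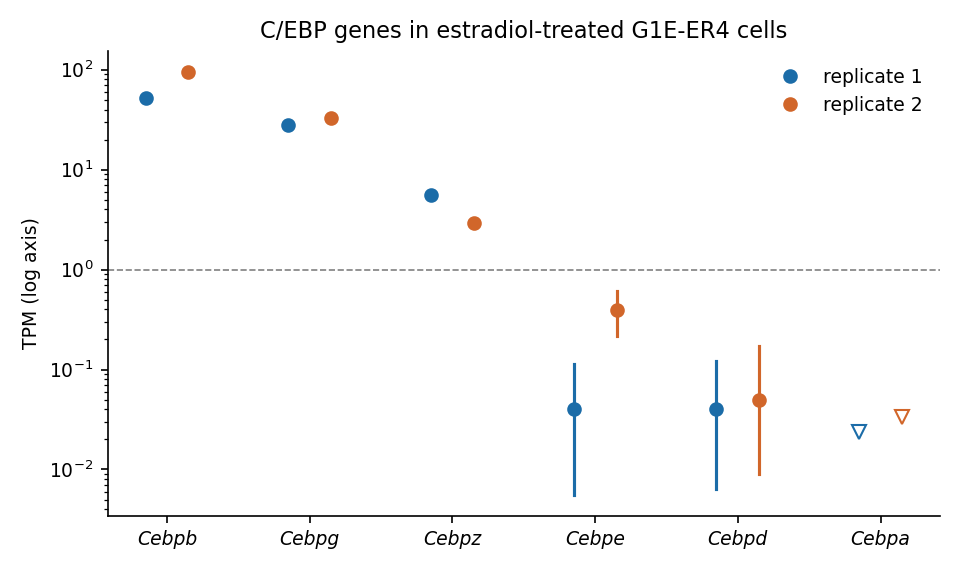
TPM of the 6 C/EBP genes in each library on a log axis, with the interval deposited by the authors as vertical lines and the detection level of 1 as a dashed line. Open triangles mark the upper bound for Cebpa, which had 0 counts; Cebpb, Cebpg and Cebpz lie above the line in both libraries and the other 3 genes lie below it.

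Cebpb (ENSMUSG00000056501, chromosome 2, 167688915 to 167690418, plus strand) is a gene of 1 exon. It had a TPM of 52.26 in replicate 1 and 94.38 in replicate 2, with the authors' intervals from 49.8 to 53.1 and from 89.8 to 95.2. Its mean TPM was 73.3 ± 29.8 (SD, n = 2), the highest of the family. Its TPM exceeded that of 88.7% of protein-coding genes in replicate 1 and of 93.1% in replicate 2. The counts behind these levels were 3570 and 4535. The authors' tables do not state the level of their intervals, which are narrower than the gap between the libraries.

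The partner gene Cebpg (ENSMUSG00000056216, chromosome 7, 35046422 to 35056573, minus strand) had a TPM of 28.03 in replicate 1 and 32.67 in replicate 2. The mean was 30.4 ± 3.28 (SD, n = 2), and the authors' intervals of 25.5 to 29.7 and 29.4 to 34.7 overlapped. Counts were 2311 and 1484. Cebpg was thus the member whose level repeated best among those detected, and it lay below Cebpb in both libraries.

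Within the zipper-bearing members, Cebpb made up most of the signal. The 5 genes other than Cebpz summed to a TPM of 80.4 in replicate 1 and 127 in replicate 2. Cebpb held 65.0% and 74.0% of these sums, and Cebpg held 34.9% and 25.6%. The ratio of Cebpb to Cebpg TPM was 1.86 in replicate 1 and 2.89 in replicate 2. By expected counts, which are not scaled for length, that ratio was 1.54 and 3.06, so Cebpb led in both units.

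The ribosome assembly gene Cebpz (ENSMUSG00000024081, chromosome 17, 78919006 to 78937066, minus strand, 16 exons) had a TPM of 5.55 in replicate 1 and 2.91 in replicate 2, and averaged 4.23 ± 1.87 (SD, n = 2). The authors' intervals, 5.14 to 5.78 and 2.58 to 3.14, did not overlap. Counts were 1101 and 404. The Cebpg over Cebpz ratio of TPM was 5.05 and 11.2, and Cebpz was the lowest of the 3 detected members in both libraries.

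Cebpe (ENSMUSG00000052435, chromosome 14, 54710360 to 54712174, minus strand, 2 exons), the gene of late granulocyte formation, had 2 counts in replicate 1 and 15 in replicate 2. Its TPM was 0.04 and 0.39, and the authors' intervals, 0.00561 to 0.114 and 0.216 to 0.607, did not overlap. Cebpd (ENSMUSG00000071637, chromosome 16, 15887286 to 15891031, plus strand), the acute-phase and fat cell member, had 2 counts in each library and a TPM of 0.04 and 0.05. Both genes were below detection in each library. The Cebpd transcript was 1180 bases long in the authors' tables and 3746 bases long in the later GENCODE M21 annotation, so most of the later model lay outside the sequence that was counted.

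Cebpa (ENSMUSG00000034957, chromosome 7, 35119293 to 35121928, plus strand, 1 exon), the factor of granulocyte and monocyte fate, had 0 counts in both libraries. A limit of 3 counts corresponds to a TPM of 0.0239 in replicate 1 and 0.0341 in replicate 2, and the authors' upper bounds were 0.0236 and 0.0333. These limits cover counting error only. Cebpa transcripts were therefore not detectable at this depth. Its transcript is GC-rich, at 62.6%, and of the 620 protein-coding genes within 2 percentage points of that value 259 were detected, or 41.8%, while 26.9% had 0 counts in both libraries.

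The loci were compared because Cebpa and Cebpg are neighbours on chromosome 7, separated by 62720 bases. On the far side of Cebpg lies Pepd, the gene of a dipeptidase, with a gap of 1714 bases and a TPM of 15.14 in replicate 1 and 9.99 in replicate 2. On the far side of Cebpa lies the amino acid transporter gene Slc7a10, with 0 counts in both libraries. Cebpa and Slc7a10 were thus a silent stretch next to a transcribed one. Farther out, Gpatch1 had a TPM of 18.9 and 20.2, and Chst8, Lrp3 and Rhpn2 reached at most 0.1.

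**Figure D2:**
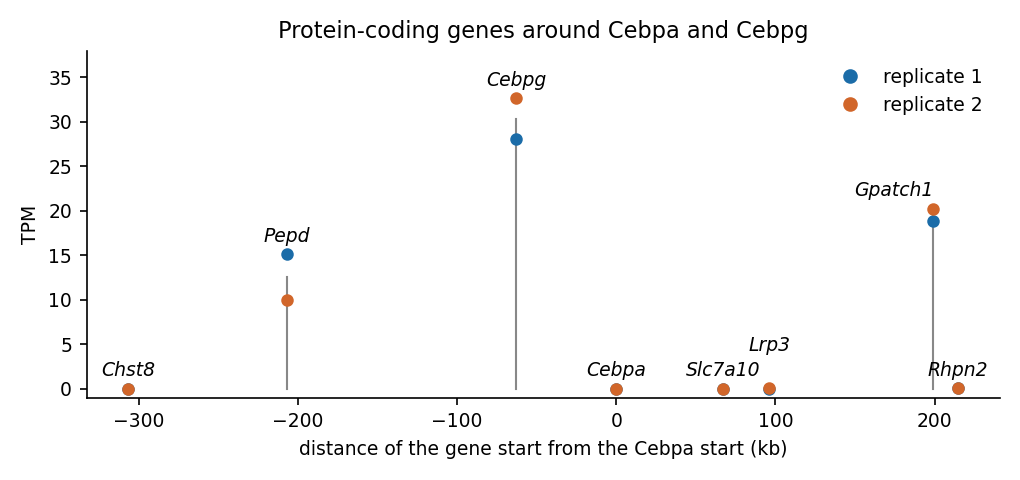
TPM in each library of the 8 protein-coding genes nearest to Cebpa and Cebpg, placed by the distance of each gene start from the Cebpa start, with grey stems up to the mean. Pepd, Cebpg and Gpatch1 stand above 9 TPM in both libraries, and Cebpa lies at 0 between Cebpg and Slc7a10.

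The other loci were mixed as well. Cebpe, nearly silent, lay between 1700123O20Rik, with a TPM of 7.66 and 7.72, and the amino acid transporter gene Slc7a8, with 96.1 and 132. Cebpd lay between Mzt2, a gene of a microtubule nucleation protein, at 43.45 and 20.02, and Spidr, a DNA repair gene, at 1.13 and 0.76. Cebpb overlapped Tmem189, an enzyme gene of plasmalogen synthesis, at 68.1 and 63.1, and its other neighbour was the phosphatase gene Ptpn1 at 45.3 and 48.6. A low member thus stood next to an expressed gene in the cases of Cebpe and Cebpd.

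For 3 members an exon of a gene on the opposite strand overlapped the transcript, and the sources used here do not state whether strand was used in counting. The shared stretch was 312 bases between Cebpb and Tmem189-204, 562 bases between Cebpd and Spidr-201, and 171 bases between Cebpz and the Cebpzos transcripts. Tmem189-204 had 64.7 counts in replicate 1 and 21.9 in replicate 2, far below the counts of Cebpb. Spidr-201 had 179 and 84, far above the 2 and 2 of Cebpd. That overlap was measured on the 3746-base model of Cebpd, and whether the shorter transcript that was counted holds it was not examined. Cebpzos, whose name comes from its place opposite Cebpz, had 97 and 31 counts as a gene. The authors' posterior SD of the count, which measures doubt in the assignment of fragments, was 0 for all 6 members at the gene level.

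Cebpg was the only member with more than 1 transcript in the tables, and the transcript that led depended on the unit. The 2 transcripts share 618 exonic bases, which lie in the second exon. Cebpg-201, of 890 bases in the authors' tables, starts from an exon at 35055645 to 35055940. Cebpg-202, of 4639 bases, starts from an exon at 35056376 to 35056573 and has a much longer second exon. The promoter window printed above spans the start of Cebpg-202 and holds no part of Cebpg-201.

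By TPM, Cebpg-201 held 76.2% of Cebpg in replicate 1 and 85.6% in replicate 2, and its share averaged 80.9% ± 6.65 (SD, n = 2). Its TPM was 21.36 and 27.97, and that of Cebpg-202 was 6.67 and 4.70. By expected counts the short transcript had 795 and 737, or 34.4% and 49.7% of the gene, and Cebpg-202 had 1516 and 747. Cebpg-201 therefore led by TPM in both libraries, and Cebpg-202 led by counts in both, although by little in replicate 2. The authors' posterior SD of each transcript count was 33.8 in replicate 1 and 28.7 in replicate 2.

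**Figure D3:**
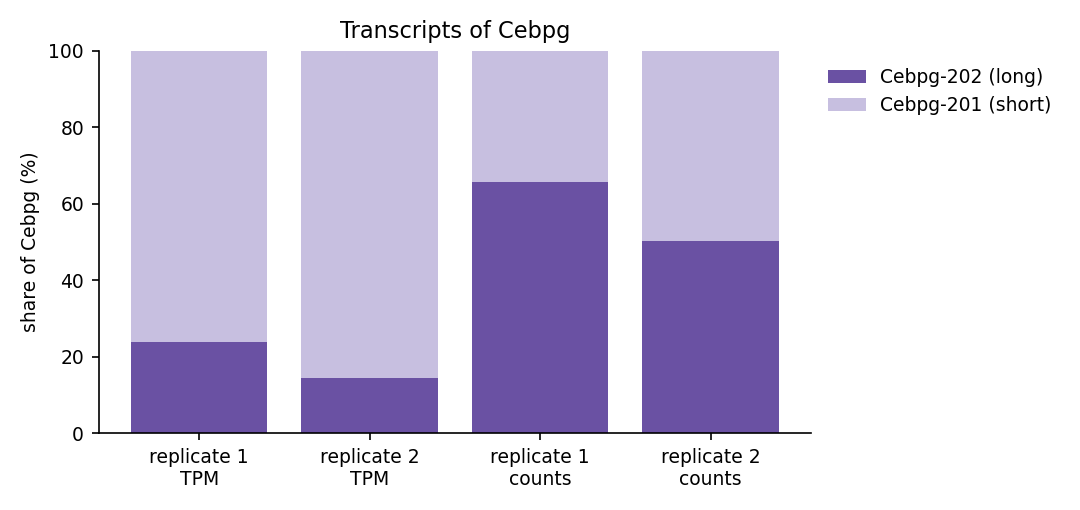
Share of each Cebpg transcript in its gene (percent) in each library, by TPM on the left and by expected counts on the right. The short Cebpg-201 (light) takes 76.2% and 85.6% by TPM, and 34.4% and 49.7% by counts.

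Between the libraries, which are replicates of the same treatment, Cebpe was the only member called different. The comparison measures how well the levels repeated. An exact binomial test against the TMM-scaled library sizes was run on every gene whose counts summed to 10 or more, and a call needed a Benjamini-Hochberg adjusted p under 0.05 and a difference of at least 2-fold. The test takes counting noise as the only error. Over all 11285 genes tested, 11.2% were called, 2.8% as higher in replicate 2 and 8.37% as lower, and the log2 ratio, taken as replicate 2 over replicate 1, had a median of −0.02. Of 4 members tested, 1 was called higher and 0 were called lower in replicate 2.

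The Cebpe log2 ratio was 3.26 (95% exact interval 1.43 to 6.70, adjusted p = 9.02e-05 by the exact binomial test), from 2 counts in replicate 1 and 15 in replicate 2. In edgeR's exact test, which uses the dispersion of the pair, the adjusted p was 0.211 and the call was lost. That dispersion was estimated from the same 2 libraries, so it already counts their differences as noise. The 23 granulocyte and monocyte genes summed to 92 counts in replicate 1 and 139 in replicate 2, a TPM of 1.09 and 2.59, but the single gene Csf2ra, which was not called, held 74 and 89 of those counts. Among them Mpo, the myeloperoxidase gene, had 0 and 24 counts (adjusted p = 4.99e-10 by the exact binomial test), and Elane, the neutrophil elastase gene, had 1 and 10 (adjusted p = 0.00113). Prtn3, with 3 and 6 counts, Ctsg, with 0 and 3, and Csf1r, with 1 and 2, were also higher in replicate 2. Those genes had too few counts to be tested. Csf3r, with 8 counts in replicate 1 and 3 in replicate 2, Lyz1, with 2 and 0, and Mmp8, with 1 and 0, were lower in replicate 2. The TPM of Csf3r was 0.05 and 0.12, so its direction depended on the unit. Of the 23 genes, 13 were at 0 in both libraries, where 39.5% of all protein-coding genes were. Those at 0 included the defining genes Itgam, Lyz2, Ltf, Lcn2, Camp, Ngp, S100a8 and S100a9. Cebpe has a GC content of 61.5%, and the 559 genes tested within 2 percentage points of it had a median log2 ratio of 0.38. Whether RNA of other cells or GC content plays a part in the Cebpe ratio was not tested.

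Cebpb and Cebpz differed between the libraries by less than the 2-fold limit. The Cebpb log2 ratio was 0.97 (95% exact interval 0.91 to 1.03, adjusted p = 9.24e-199 by the exact binomial test), or 1.96-fold, just inside the limit. Its GC content of 67.2% was higher than that of 99.7% of protein-coding genes, and genes within 2 percentage points of it had a median log2 ratio of 0.72 over the 45 tested. The Cebpz log2 ratio was −0.82 (interval −0.99 to −0.66, adjusted p = 1.16e-23), and genes near its GC content of 43.4% had a median of −0.20. The part of GC content in either ratio was not tested. In edgeR's exact test the adjusted p was 1 for Cebpb and for Cebpz, but its dispersion counts the differences between these libraries as noise. It therefore cannot decide whether these ratios are real.

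Cebpg had a log2 ratio by counts of −0.01 (95% exact interval −0.11 to 0.08, adjusted p = 0.824 by the exact binomial test), although its sign changed to 0.0059 with DESeq2 size factors and the log2 ratio of its TPM was 0.22. Scaling by total counts lowered every log2 ratio by 0.21 and made Cebpz a call, at −1.03, while Cebpg was then at −0.22 (adjusted p = 6.46e-06 by the exact binomial test), under the 2-fold limit. Under it 1605 genes were called and 10.4% of these were higher in replicate 2, where the share was 25.1% with TMM. Next to Cebpz, Cebpzos had a log2 ratio of −1.005 (adjusted p = 0.000709 by the exact binomial test) and the mitochondrial complex I assembly gene Ndufaf7, 70 bases from Cebpz, had −1.78 (adjusted p = 6.31e-06). Both neighbours were called lower in replicate 2, as were 8.37% of all genes tested.

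**Figure D4:**
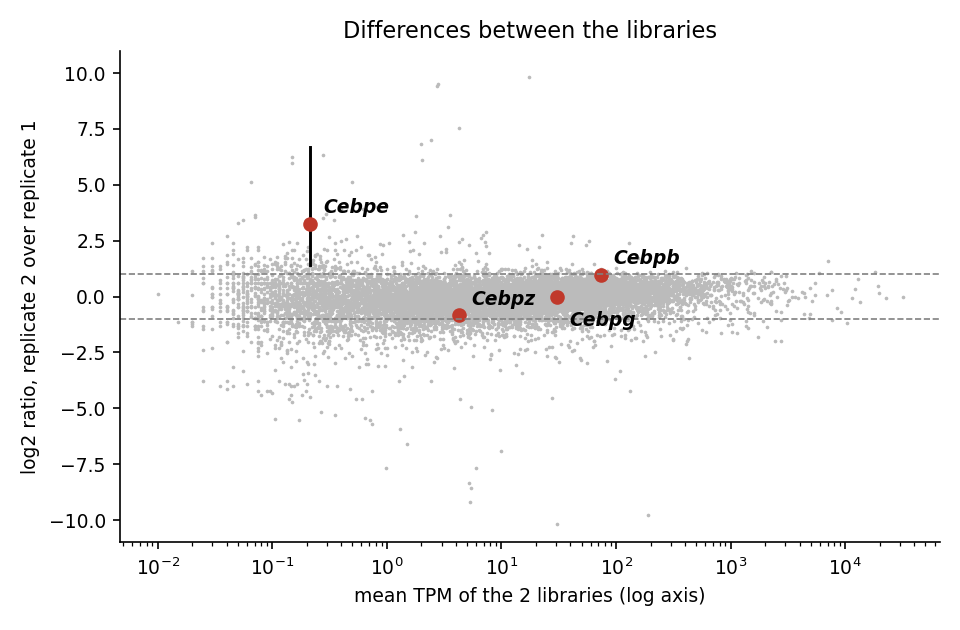
Log2 ratio of replicate 2 over replicate 1 against mean TPM (log axis) for all genes tested (grey) and the 4 C/EBP members tested (red, with 95% exact intervals as black lines). Dashed lines mark 2-fold; Cebpe lies outside them at 3.26, Cebpb just inside at 0.97, Cebpz inside at −0.82 and Cebpg at −0.01.

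Many leucine zipper genes whose products can pair with C/EBP proteins were expressed. Of 19 partner genes 10 were detected, where 38.3% of all protein-coding genes were. The median of their mean TPM was 3.72, where the median over all protein-coding genes was 0.03. Atf5 led, with a TPM of 307 in replicate 1 and 447 in replicate 2. Junb, an AP-1 subunit gene, had 167 and 166, and its relative Jund had 99.8 and 170. Batf and Nfil3 were at 0 counts in both libraries. The circadian regulator gene Dbp was the only partner of 14 tested that was called, higher in replicate 2 as were 2.8% of all genes, with a log2 ratio of 1.03 (adjusted p = 1.59e-47 by the exact binomial test).

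Some partner genes exceeded the members in transcript level. Atf4, the stress factor that pairs with C/EBPγ, had a TPM of 137 in replicate 1 and 109 in replicate 2, which was 4.90 and 3.32 times that of Cebpg. Atf5 had 5.87 and 4.74 times the TPM of Cebpb. Ddit3, whose product CHOP pairs with C/EBP proteins and keeps them from their usual sites, had 69.3 and 49.0. All 3 exceeded Cebpg in both libraries.

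The genes that ATF4 and C/EBPγ are known to act on were mostly expressed, with transporter and folate cycle genes at the top. Of 16 genes 10 were detected, where 38.3% of all protein-coding genes were, with a median of the mean TPM of 6.99. The highest were the folate cycle enzyme gene Shmt2, with a TPM of 271 and 194, and the subunits of a large amino acid transporter, Slc7a5 with 164 and 160 and Slc3a2 with 129 and 83.8. Of 11 tested, 2 were called lower in replicate 2 and 0 higher, where 8.37% and 2.8% of all genes tested were. These were Psph, with 477 and 105 counts (log2 ratio −1.55, adjusted p = 8.22e-28 by the exact binomial test), and Phgdh, with 22 and 2 (−2.54, adjusted p = 0.00219), both enzymes of serine synthesis. The enzyme gene between them in that pathway, Psat1, had a TPM of 16.1 and 21.5 and was not called. By counts it was lower in replicate 2, with 1304 in replicate 1 and 696 in replicate 2 (log2 ratio −0.28), so its direction depended on the unit. The alanine aminotransferase gene Gpt2 was at 0 in both libraries. Chac1 had 5 counts in replicate 1 and 1 in replicate 2, Slc7a11 had 1 and 1, and Cth and Aldh1l2 each had 0 and 1. The list was thus split between well expressed and nearly silent genes.

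The 3 subunit genes of NF-Y, the factor that binds the CCAAT box, were all detected, with mean levels between those of Cebpg and Cebpb. Nfya had a TPM of 33.8 and 33.9, Nfyb 39.5 and 51.3, and Nfyc 63.0 and 29.3. Nfyc lay above Cebpb, at 52.26, in replicate 1 and below Cebpg, at 32.67, in replicate 2. It was thus not ordered against either member beyond its spread. Nfyc was called lower in replicate 2, as were 8.37% of all genes tested, with a log2 ratio of −1.01 (adjusted p = 1.38e-105 by the exact binomial test). By TPM, Nfya repeated most closely of the 3.

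Genes that C/EBP factors are known to drive in other cells were silent or nearly so. None of 23 granulocyte and monocyte genes was detected, and 13 had 0 counts in both libraries. Over all protein-coding genes 38.3% were detected and 39.5% had 0 counts in both libraries. The highest was Csf2ra, a cytokine receptor subunit gene, with a TPM of 0.86 in replicate 1 and 1.48 in replicate 2. None of 14 inflammatory targets of C/EBPβ and C/EBPδ was detected, 10 were at 0 in both libraries including Il6, Nos2, Ptgs2 and Saa3, and the list summed to 7 and 6 counts. Cebpb was thus expressed at a mean TPM of 73.3 in cells where these inflammatory genes gave almost no counts. The highest of them were Tnf, with 2 and 4 counts, Hp with 3 and 0 and Il1b with 2 and 1.

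Fat and liver genes gave 19 counts in replicate 1 and 2 in replicate 2. Of the 12, 10 were at 0 in both, including Adipoq, Fabp4 and Alb, where 39.5% of all protein-coding genes were. The apolipoprotein gene Apoa1 held 18 and 2 of these counts and was called lower in replicate 2, with a log2 ratio of −2.26 (adjusted p = 0.00916 by the exact binomial test). Of 12 eosinophil, basophil and mast cell genes only Hdc, the histidine decarboxylase gene, was detected, where 38.3% of all protein-coding genes were. Its TPM was 8.51 and 6.74. The mast cell protease gene Cpa3 had 0.14 and 0.26, and Mcpt8, Fcer1a and Ms4a2 were at 0. Hdc was thus expressed while no other gene of this list was detected. Of the endothelial and stromal markers, Col1a2 was called higher in replicate 2, with 18 and 30 counts (log2 ratio 1.35, adjusted p = 0.00282).

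Regulators that work beside C/EBP factors in blood progenitors were split. Of 12 such genes 6 were detected, where 38.3% of all protein-coding genes were, with a median of the mean TPM of 2.07. Gfi1b, a repressor of red cell and platelet precursors, had a TPM of 978 and 707, Runx1 had 200.9 and 293.5, and its partner gene Cbfb had 24.3 and 29.3. Spi1, which encodes PU.1, the partner of C/EBPα in myeloid cells, had 25.3 and 25.7, and Gfi1, the granulocyte relative of Gfi1b, had 0.33 and 0.31. Klf4 was at 0 in both libraries. None of 8 tested was called, where 11.2% of all genes tested were. Spi1 was thus expressed in cells with no Cebpa counts.

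Genes that relay signals to C/EBP factors were mostly present. Of 10 such genes, cytokine receptors, STAT factors and Creb1, 7 were detected, where 38.3% of all protein-coding genes were. Their median of the mean TPM was 17.6. Of 8 tested none was called, where 11.2% of all genes tested were. Csf2rb, the shared receptor subunit for several myeloid cytokines, has a near-identical copy, Csf2rb2, so the split between them, and its TPM of 211 and 329, is uncertain. Stat5b had 67.3 and 63.8, and Stat3 had 19.8 and 37.3. The Stat3 log2 ratio by counts was −0.07, so its difference in TPM was not seen in counts. Csf2ra, the subunit that pairs with Csf2rb for GM-CSF, was below detection, and Lifr was at 0.

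Of 11 genes that modify, degrade or control translation of C/EBP proteins 9 were detected, where 38.3% of all protein-coding genes were. Their median of the mean TPM was 94.7. Cdk4, a cell cycle kinase gene, had a TPM of 1542 and 1080, the kinase gene Gsk3a 288 and 381, and Calr, whose product has been linked to repression of C/EBP translation, 266 and 235. The ubiquitin ligase gene Cop1, which with Tribbles proteins leads to degradation of C/EBPα, had 99.5 and 204. Its adaptor gene Trib2 was at 0 in both libraries. Over all genes tested 2.8% were called higher in replicate 2, and 2 of the 10 tested here were, Cop1 with a log2 ratio of 1.07 (adjusted p = 5.70e-227 by the exact binomial test) and Gsk3b with 1.09 (adjusted p too small to be represented, written as 0).

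Cebpz was low beside most genes of the list set around its role. The list holds ribosome assembly genes and also Mettl3 and Mettl14, the mRNA methylation enzyme genes whose products have been linked to CEBPZ in human leukemia cells. Of its 18 genes 17 were detected, where 38.3% of all protein-coding genes were. The median of their mean TPM was 41.4, where Cebpz had 4.23. Fbl, the fibrillarin gene, led with a TPM of 1001 and 601, followed by Rrp1 with 288 and 197 and Noc4l with 173 and 129. Noc2l, whose yeast counterpart pairs with that of Cebpz, had 46.6 and 48.9. The ratio of Cebpz to Noc2l TPM was 0.119 in replicate 1 and 0.0595 in replicate 2. Cebpz was thus well below Noc2l in both libraries.

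Of the 18 genes 4 were called lower in replicate 2 and 0 higher, where 8.37% of all genes tested were called lower and 2.8% higher. The log2 ratios of these 4 ribosome assembly genes were −1.68 for Nop58 (adjusted p = 7.51e-295 by the exact binomial test), −1.39 for Noc3l (adjusted p = 3.36e-11), −1.29 for Ebna1bp2 (adjusted p = 2.39e-149) and −1.06 for Pes1 (adjusted p = 1.57e-161). The median of the list was −0.53, with −0.02 over all genes tested. Noc3l, with a TPM of 1.09 in replicate 1 and 0.38 in replicate 2, was the member of this list below detection. With the pair's own spread allowed for by edgeR's exact test, none of these 4 was called, and of all list genes called here only Mpo was (adjusted p = 0.00762).

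**Figure D5:**
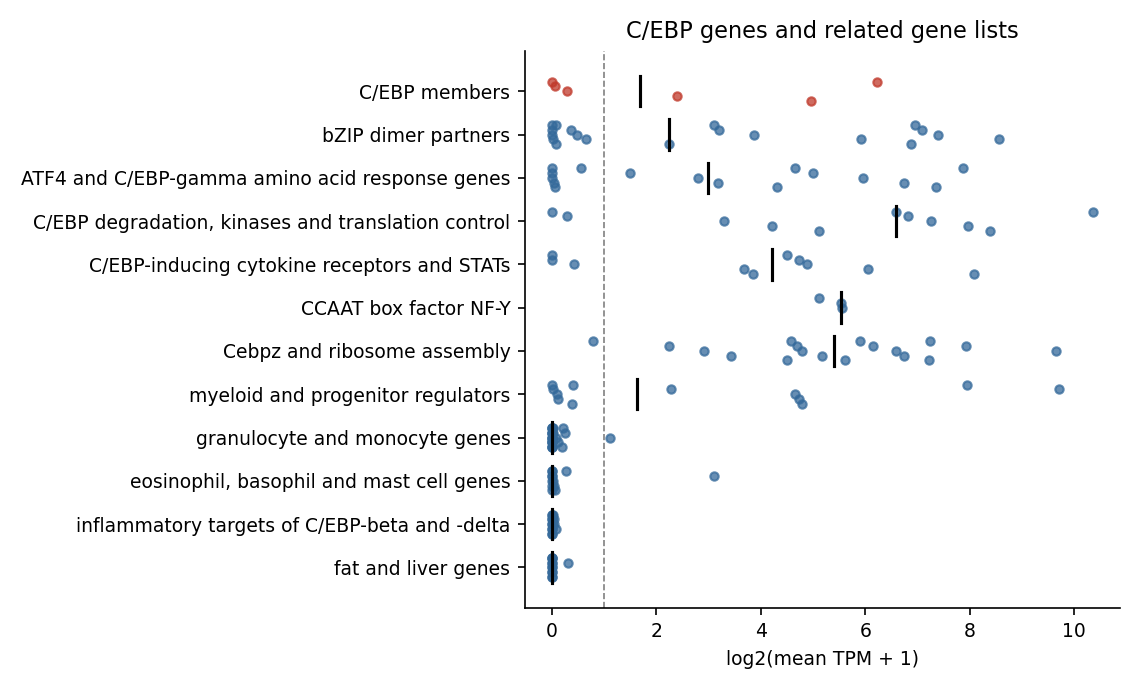
Mean TPM of the 6 C/EBP members (red, top) and of the genes of 11 related lists (blue), as log2(mean TPM + 1), with each list's median as a black bar and a mean TPM of 1 as a dashed line. The lists of Cebpz and ribosome assembly, of NF-Y and of kinases lie mostly to the right, while granulocyte, inflammatory, and fat and liver genes lie at or near 0.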

How the data were processed

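PolyA RNA-seq of 2 libraries of 1 group was analysed. The authors deposited, per library, gene and transcript tables of expected counts (estimated fragments, not normalized), posterior mean counts and TPM (scaled for effective length). Per the notes deposited with the files, the build was mm10 and the annotation GENCODE M4. No aligner or quantifier is named in the sources used here. The authors' TPM intervals carry no stated level.

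Names, positions, neighbours and GC content came from GENCODE M21 (GRCm38, the same assembly). Expected counts were rounded for tests. The main test was an exact two-sided binomial test (scipy 1.17.1) against TMM-scaled library sizes (edgeR 4.0.16), with a prior count of 0.5 for log2 ratios. It compares libraries, not conditions. edgeR's exact test used the common dispersion of the pair, a coefficient of variation of 0.309. It was estimated with both libraries as 1 group, so a lost call there does not show that a difference is absent. DESeq2 1.42.0 gave size factors only. Procedures were tested on simulated data. Intervals and limits cover counting error only.

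The members, the 15 lists of 183 genes and the tests were chosen with earlier results of these data known. Named genes were the 3 highest of each list by mean TPM, genes called different, defining genes at 0 counts and the nearest protein-coding neighbours. Other genes named, such as Atf4, Ddit3, Spi1, Gfi1, Psat1, Noc2l and the outer genes of the chromosome 7 locus, were chosen after their values were seen. No gene was ranked by likeness to a member, since 2 libraries allow none.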

Additional observations from a re-analysis of the deposited data

How the results depend on the processing

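Of 131 alternative values, 119 were counted as unchanged, which for levels and for counts of genes allowed some shift. Some log2 ratios were counted as unchanged although their adjusted p changed greatly. Cebpb (9.24e-199 by the exact binomial test) and Cebpz (1.16e-23) lost their low adjusted p in edgeR's exact test. For Cebpg it fell from 0.824 to 6.46e-06 by the exact binomial test with total counts. The 119 therefore does not measure how stable the p-values were. At a TPM limit of 5 the members detected fell from 3 to 2, since Cebpz had 2.91 in replicate 2. Some list counts also fell at that limit, as the ATF4 and C/EBPγ list did from 10 to 8. The Cebpg log2 ratio changed sign to 0.0059 with DESeq2 size factors and to 0.22 from TPM, so its direction is not set; with total counts it was −0.22 (adjusted p = 6.46e-06), under the 2-fold limit. The Cebpz log2 ratio passed the 2-fold limit with total counts, at −1.03. The Cebpe log2 ratio was 3.44 in edgeR's exact test and no longer passed (adjusted p = 0.211). Of the members, 2 were called with total counts, 3 with no fold limit, 0 with at least 50 counts in each library and 0 with edgeR's exact test. With no fold limit 7672 of all 11285 genes tested were called, or 68.0%, with edgeR's exact test 72, and with at least 50 counts in each library 697 of 8982. The fewer calls at 50 counts follow in part from fewer genes tested, Cebpe among those left out. The mean TPM of Cebpd was 0.07 from posterior means. The mean share of Cebpg-201 was 42.0% by expected counts. Of 60 list results 2 moved by over 1.5 times, both in the granulocyte and monocyte list, where 1 gene (Csf2ra) was detected at a TPM limit of 0.5 and without replicate 1. Without either replicate a ratio has no value. Depth limits what can be said of Cebpa, Cebpd and Cebpe, which rest on 0 to 15 counts. No paired analysis was possible because the series holds 1 group.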
